A study of Mus musculus with 11 samples.

Results

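Formative and primed pluripotency was followed through 5 genes, Otx2, Pou3f1, Fgf5, Zic2 and Zic5, taken by name from the 23288 gene symbols of the expression table, and all 5 were present. Each gene was read in 4 RNA-seq libraries and in 4 lists of ChIP-seq peaks. All samples are E14Tg2A mouse embryonic stem cells (ESCs), grown without feeder cells on gelatin in medium with serum and leukemia inhibitory factor (LIF). For RNA-seq, the ESCs had been infected with a lentivirus carrying either a control shRNA (shCtl, 2 libraries) or an shRNA against Cbx6 (shCbx6, 2 libraries) and selected with antibiotic. For CBX6 ChIP-seq (2 replicates), anti-HA antibody was used in ESCs whose own Cbx6 gene had been given an HA tag by genome editing, followed by sorting of single cells. CBX7 and RING1B (1 list each) were precipitated with antibodies against the proteins themselves, and the control precipitations were not analysed here. Which Cbx6 shRNA the libraries carried, and whether they came from separate cultures, is not given in the sources used here, so p-values measure the spread between these libraries, which may be technical. In such bulk samples, fewer cells of a type and less RNA per cell cannot be told apart.

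Around implantation, cells of the mouse epiblast leave naive pluripotency, pass through a formative state in which they gain competence for the germ layers, and reach the primed state. OTX2, a homeodomain transcription factor, works with OCT4 at enhancers that are used as naive pluripotency is left, and POU3F1 (OCT6) is a POU domain factor of the same transition. FGF5 is a secreted growth factor and a classical marker of the epiblast after implantation, and ZIC2 and ZIC5 are zinc finger transcription factors. RING1B is the catalytic subunit of Polycomb repressive complex 1, which ubiquitinates histone H2A, and CBX proteins such as CBX7 bind methylated histone H3. In ESCs, Polycomb complexes gather at CpG-rich promoters of developmental genes.

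The DNA at the starts of these genes is shown first, because CpG content and the peaks described later refer to it. Promoters run from 250 bases before to 50 bases after a transcript start and were taken from a supplied set of RefSeq promoters (GRCm38.p6). That set had entries for 3 of the 5 genes. It held none for Pou3f1 and Zic2, which is a gap of the set and not of RefSeq as a whole. Of the 4 listed starts of Otx2, the outermost and an inner one are printed, since the peak lists differed between them. In GRCm38.p6 the Fgf5 promoter lies at chr5:98253934-98254233 on the plus strand. The other 3 lie on the minus strand, the inner Otx2 promoter at chr14:48665060-48665359, the outermost at chr14:48667595-48667894 and the Zic5 promoter at chr14:122465609-122465908. Sequences read 5′ to 3′ along the transcribed strand, and capitals mark CG dinucleotides.
Fgf5 promoter: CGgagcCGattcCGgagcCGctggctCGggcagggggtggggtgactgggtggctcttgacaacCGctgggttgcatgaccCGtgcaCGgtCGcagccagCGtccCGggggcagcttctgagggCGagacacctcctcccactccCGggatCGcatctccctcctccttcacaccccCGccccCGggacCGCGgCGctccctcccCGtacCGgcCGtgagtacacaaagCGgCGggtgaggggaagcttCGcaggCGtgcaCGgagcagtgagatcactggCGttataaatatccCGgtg
Otx2 inner promoter: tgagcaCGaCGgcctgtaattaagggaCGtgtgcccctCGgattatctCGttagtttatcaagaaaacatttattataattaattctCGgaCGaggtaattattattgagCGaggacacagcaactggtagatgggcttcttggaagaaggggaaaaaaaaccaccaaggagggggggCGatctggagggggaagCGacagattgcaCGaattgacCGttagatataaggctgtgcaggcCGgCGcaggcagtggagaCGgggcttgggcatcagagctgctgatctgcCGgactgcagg
Otx2 outermost promoter: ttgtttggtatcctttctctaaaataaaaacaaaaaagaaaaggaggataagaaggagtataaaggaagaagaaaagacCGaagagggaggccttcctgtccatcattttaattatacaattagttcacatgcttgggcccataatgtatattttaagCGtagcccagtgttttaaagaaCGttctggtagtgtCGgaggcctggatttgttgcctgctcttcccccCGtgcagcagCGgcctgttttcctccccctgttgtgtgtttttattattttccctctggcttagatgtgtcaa
Zic5 promoter: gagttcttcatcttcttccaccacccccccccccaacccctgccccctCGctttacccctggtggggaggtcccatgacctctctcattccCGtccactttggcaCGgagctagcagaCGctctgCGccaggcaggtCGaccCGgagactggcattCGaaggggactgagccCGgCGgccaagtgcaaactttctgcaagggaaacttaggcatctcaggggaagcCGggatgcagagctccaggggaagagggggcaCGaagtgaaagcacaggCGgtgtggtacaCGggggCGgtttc

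Of the 4, the Fgf5 promoter had the most CG dinucleotides (29) and the highest GC content (68.3%), at a ratio of observed to expected CG of 0.828. By that ratio the inner Otx2 promoter was the highest. The inner Otx2 promoter held 16 CG (ratio 0.891), whereas the outermost held 6 (ratio 0.463). The Zic5 promoter held 15 CG at a ratio of 0.51. Over the 32851 promoters of the table the median was 7 CG and a ratio of 0.384. The Fgf5 and inner Otx2 ratios were at or above those of 81.5% and 86.6% of all promoters, compared with 58.7% for Zic5 and 55.7% for the outermost Otx2 promoter. Of 3 motifs searched on both strands (none of them overlaps another) TCCCGC (E2F6) and CACGTG (the E-box of MGA and MAX) had no match in the 6 listed promoters of these genes, and they occurred in 20.0% and 7.15% of all promoters. TAATCC, the motif of OTX factors, matched the inner Otx2 promoter, at base 40 of the window on the opposite strand, and no other of the 6. It occurred in 7.06% of all promoters. A match is a description of these letters and not a binding site.

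The ESC markers Pou5f1 (OCT4) and Nanog were high in every library and read lower in shCbx6, neither passing after adjustment. Pou5f1 was at 1359 and 1452 FPKM in the controls against 1120 and 1151 FPKM (log2 fold change −0.31, limma unadjusted p = 0.156, adjusted p = 0.604). Nanog was at 321 and 359 FPKM against 204 and 192 FPKM (log2 fold change −0.78, unadjusted p = 0.00394, limma adjusted p = 0.188). FPKM is the number of fragments per length of transcript and scaled to the fragments of the library, so that levels of different genes can be compared. Between 11116 and 11325 genes reached 1 FPKM in a library. Fragment totals are not in the table, but the steps between low values put the depth of the libraries at 0.956 to 1.13 of that of shCtl replicate 1. Cbx6 itself was read at 17.4 and 14.9 FPKM in the controls and at 9.53 and 5.4 FPKM in shCbx6, lower in both (log2 fold change −1.06, limma adjusted p = 0.247).

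Under Cbx6 knockdown, Otx2, Pou3f1 and Fgf5 read several times higher in both libraries than in either control, and Zic2 and Zic5 by less than 2-fold on average. None of the 5 passed limma's test across all genes after Benjamini-Hochberg adjustment at 0.05, where 0.0431% of the 11592 tested genes passed with a higher and 0.0518% with a lower level in shCbx6. At an unadjusted p under 0.05, 4 of the 5 (all but Zic2) were higher, where 5.12% of all tested genes were. All 5 were at least 1.5-fold higher by the ratio of group means (7.63% of tested genes, with 6.56% lower by that rule), and 4 of the 5 had both shCbx6 values above both shCtl values (18.9% of tested genes, with 24.4% the other way round). Pou3f1 and Fgf5 averaged under 1 FPKM in the controls and entered the test through their shCbx6 level alone, so these counts carry a choice that favours a difference. The median log2 fold change of the 5 was 1.17 (range 0.62 to 2.18), on the scale of log2(FPKM + 1), and −0.01 over all tested genes. With 2 libraries against 2, an exact permutation test cannot go below p = 0.333.

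**Figure D1:**
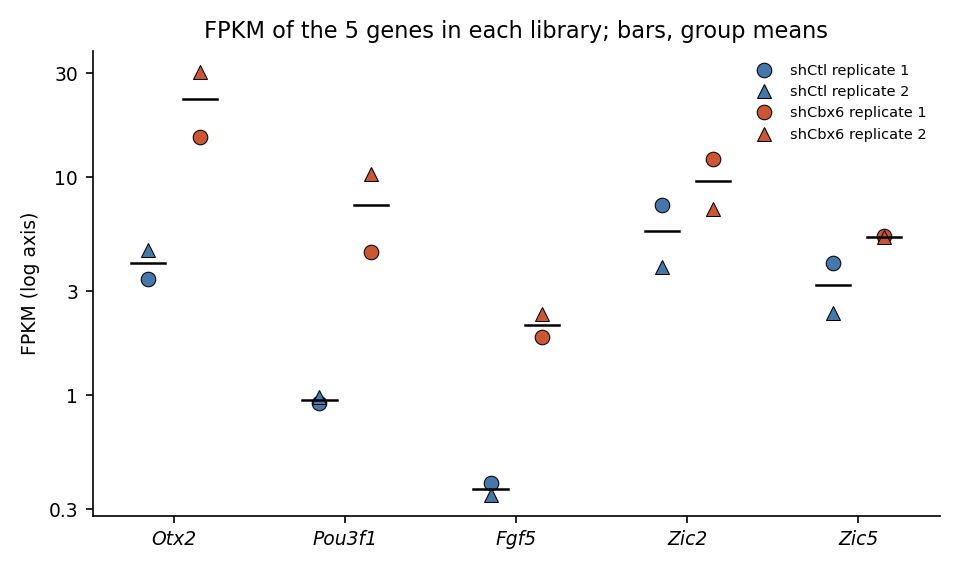
Level of each of the 5 genes in FPKM (logarithmic axis) in the 2 shCtl and 2 shCbx6 libraries, with points for libraries and bars for group means. The shCbx6 points lie above both shCtl points for Otx2, Pou3f1, Fgf5 and Zic5, and the groups overlap for Zic2.

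Otx2, the homeodomain factor, was read at 3.42 and 4.65 FPKM in the controls and at 15.3 and 30.4 FPKM in shCbx6. The groups did not overlap, and the lower shCbx6 library stood 3.30-fold above the higher control. Group means were 4.03 ± 0.872 and 22.9 ± 10.7 FPKM (SD, n = 2), a ratio of 5.67. The log2 fold change was 2.18 (standard error 0.335, unadjusted p = 0.00102, limma adjusted p = 0.117), and 0.440% of tested genes had a larger one. Within the shCbx6 group, replicate 2 was 1.98 times replicate 1. Otx2 moved from a level above 26.2% of tested genes in shCtl to one above 69.3% in shCbx6. Without shCbx6 replicate 1 the log2 fold change was 2.65 and limma's adjusted p 0.00861, with the remaining library assumed to vary as the controls do. Leaving out any other library gave limma adjusted p-values of 0.0909 to 0.543.

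Pou3f1, the POU domain factor, was nearly silent in the controls, at 0.925 and 0.977 FPKM, and was read at 4.55 and 10.4 FPKM in shCbx6. Both shCbx6 libraries were higher than both controls, the nearest pair by 4.65-fold. Its ratio of means, 7.84 (0.951 ± 0.0369 against 7.46 ± 4.12 FPKM, SD, n = 2), was the largest of the 5 genes. The log2 fold change was 2.02 (standard error 0.351, unadjusted p = 0.00181, limma adjusted p = 0.143). As with Otx2, shCbx6 replicate 2 was the higher, by 2.28-fold. Leaving out shCbx6 replicate 1 gave 2.54 with a limma adjusted p of 0.00535, whereas the other 3 gave 1.51 to 2.04 with limma adjusted p-values of 0.0834 to 0.658. In shCtl Pou3f1 stood above 3.39% of tested genes and in shCbx6 above 40.8%.

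Fgf5, the growth factor, was the lowest of the 5 in every library. It was read at 0.394 and 0.351 FPKM in the controls and at 1.86 and 2.36 FPKM in shCbx6, with no overlap and a gap of 4.71-fold between the nearest libraries. Means were 0.373 ± 0.0310 and 2.11 ± 0.353 FPKM (SD, n = 2), a ratio of 5.66 that is close to the one of Otx2. Its 2 shCbx6 libraries differed by only 1.27-fold. The log2 fold change was 1.17 (standard error 0.193, unadjusted p = 0.00141, limma adjusted p = 0.131). Since 1 FPKM is added before taking logarithms, this value is well below the logarithm of the ratio, and with 0.1 FPKM added it was 2.22. Without shCbx6 replicate 1 it was 1.29 with a limma adjusted p of 0.0286, and without any other library limma's adjusted p was 0.181 to 0.666.

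Zic2 was read at 7.45 and 3.88 FPKM in the controls and at 12.1 and 7.13 FPKM in shCbx6. The groups overlapped, since shCbx6 replicate 2 lay just under shCtl replicate 1 (0.956 of it). In both groups replicate 2 was the lower, at 0.520 of replicate 1 in shCtl and 0.591 in shCbx6. The mean was 1.69-fold higher in shCbx6 (5.66 ± 2.53 against 9.60 ± 3.49 FPKM, SD, n = 2), and the log2 fold change was 0.68 (standard error 0.347, unadjusted p = 0.103, limma adjusted p = 0.532). In this fit, which has no term for the replicate number, the difference did not hold up against the spread between replicates. It ranged from 0.29 to 1.08 when each library was left out in turn. The call depended on that choice, and the fit with the term is given in the last section.

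Zic5, the neighbour of Zic2 on chromosome 14, was read at 4.05 and 2.38 FPKM in the controls and at 5.38 and 5.30 FPKM in shCbx6. The groups did not overlap, but the nearest libraries were only 1.31-fold apart. Means were 3.21 ± 1.18 and 5.34 ± 0.0557 FPKM (SD, n = 2), a ratio of 1.66. The log2 fold change was 0.62 (standard error 0.225, unadjusted p = 0.0383, limma adjusted p = 0.394), and 0.33 to 0.91 with a library left out. Here the control libraries differed more than the shCbx6 libraries did.

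The order of the 5 levels differed between libraries, within the shCtl group as well. In shCtl replicate 1 the order was Zic2, Zic5, Otx2, Pou3f1, Fgf5. In shCtl replicate 2 and shCbx6 replicate 1 Otx2 came first, ahead of Zic2, Zic5, Pou3f1 and Fgf5. In shCbx6 replicate 2 Pou3f1 also stood above both ZIC genes. Neighbours within a group overlapped between libraries in several cases, among them Otx2 with Zic2 and Zic5 in shCtl, and Pou3f1 with both ZIC genes in shCbx6, whereas Fgf5 lay under the other 4 in each library. Summed over the 5 genes, the level was 16.2 and 12.2 FPKM in the controls and 39.2 and 55.6 FPKM under the knockdown.

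**Figure D2:**
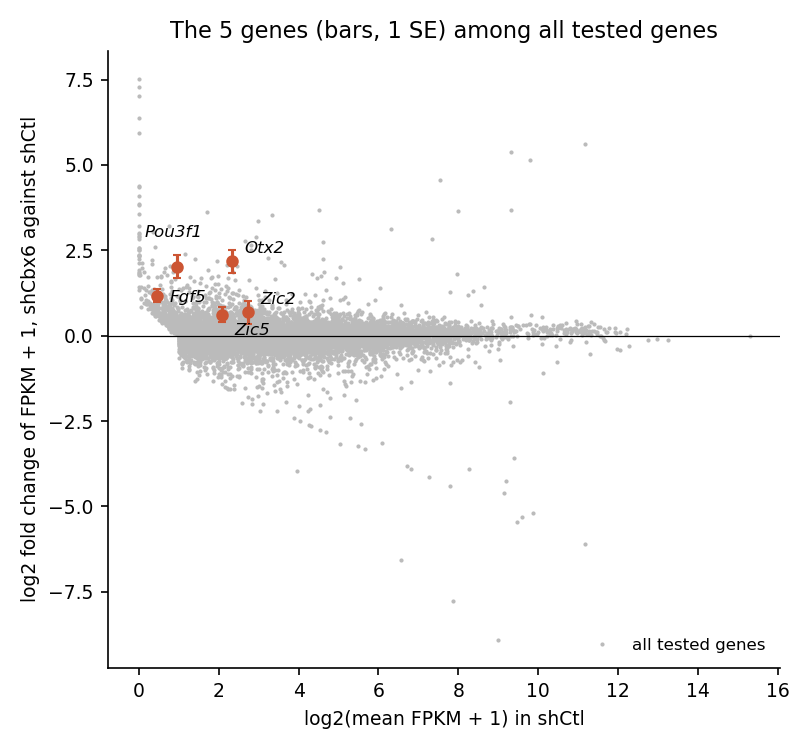
Log2 fold change of shCbx6 over shCtl for all tested genes (grey) against mean level in shCtl as log2(FPKM + 1), with the 5 genes in colour and their standard errors as bars. All 5 lie above 0, Otx2 and Pou3f1 at 2.18 and 2.02, and Zic2 and Zic5 at 0.68 and 0.62.

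Relatives of these genes were read beside them. Fgf4, the growth factor through which ESCs signal to themselves, was at 68.3 and 58.9 FPKM in the controls and at 62.7 and 57.9 FPKM under shCbx6 (log2 fold change −0.07). Zic1, Zic4, Otx1, Crx and the 3 other class III POU genes, Pou3f2, Pou3f3 and Pou3f4, stayed below the 1 FPKM filter in both groups and were not tested, the highest value among them being 0.395 FPKM for Crx in shCtl replicate 1. Fgf6 was listed at 0 in all libraries.

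Of 13 other formative genes, all were tested and none passed limma's adjusted p. At an unadjusted p under 0.05, 4 were higher and 1 lower, where 5.12% and 6.55% of all tested genes were, and the median log2 fold change was 0.09. Of the 4, Sall2 entered the test through its shCbx6 level alone. Dnmt3b, a de novo DNA methyltransferase, had the largest difference upward, at 31.8 FPKM in both shCtl libraries and 90.9 and 192 FPKM under shCbx6 (log2 fold change 2.02, limma adjusted p = 0.147). Etv4, an ETS factor downstream of FGF signalling, had the largest downward, at 55.0 and 57.8 FPKM against 37.8 and 39.9 FPKM (log2 fold change −0.53). Lef1, a transcription factor of the WNT pathway, was chosen after its values were seen and had the lowest adjusted p of that list. It was read at 2.83 and 2.34 FPKM in the controls and 10.2 and 11.2 FPKM under shCbx6 (log2 fold change 1.71, limma adjusted p = 0.0588).

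Few genes of the later primed epiblast and primitive streak were expressed. Of 10, 2 were high enough to test. Among the 8 others, which stayed at or under 0.771 FPKM in every library, T (Brachyury, a T-box factor of the streak), Wnt3, Fgf8, Mixl1 and Cer1 had both shCbx6 values above both controls, Foxa2 and Gsc had both below, and Lhx1 was listed at 0. Over the 7005 untested genes with a value above 0, 23.5% lay above and 13.3% below in this way, and values such as those of Cer1 (0 in both controls, 0.0205 and 0.0348 FPKM in shCbx6) are near 0. T was read at 0.0984 and 0.0324 FPKM in shCtl libraries against 0.446 and 0.771 FPKM, and Wnt3 at 0.0104 and 0.0307 FPKM against 0.141 and 0.497 FPKM. Of the tested pair, Nodal, a TGF-β family ligand, was at 30.5 and 34.8 FPKM in the controls and 30.6 and 32.7 FPKM under shCbx6 (log2 fold change −0.04), and Eomes, a T-box factor that also stands in the trophectoderm list, had a log2 fold change of 0.01. Naive genes leaned the other way. Of 14 tested, 10 were lower and 1 higher at an unadjusted p under 0.05, with 6.55% of all tested genes lower and 5.12% higher by that rule, and none passed after adjustment. Their median log2 fold change was −0.65. Tbx3, a T-box factor of naive ESCs, was at 34.3 and 34.0 FPKM against 13.1 and 6.90 FPKM (log2 fold change −1.73). Dppa3, the naive and germline gene also called Stella, was the 1 higher gene, at 2.36 and 2.19 FPKM in the controls and 27.0 and 57.1 FPKM under shCbx6 (log2 fold change 3.62). Of 6 core pluripotency genes, 1 was higher (Lin28a, log2 fold change 0.62, limma adjusted p = 0.235) and 1 lower (Tdgf1, −0.71, limma adjusted p = 0.30) at an unadjusted p under 0.05, none after adjustment, and Pou5f1 also had both shCbx6 values below both controls.

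For FGF signalling, of which FGF5 is a ligand, 9 of 12 receptor and ERK response genes were tested, with 3 higher and 1 lower at an unadjusted p under 0.05 (5.12% and 6.55% of all tested genes), none after adjustment, and a median of 0.42. Of the 3, the receptor gene Fgfr2 averaged 0.250 FPKM in shCtl and entered the test through its shCbx6 level alone. Dusp4, a phosphatase that ERK signalling induces, was at 2.09 and 2.51 FPKM in the controls and 9.31 and 14.2 FPKM under shCbx6 (log2 fold change 1.92), and Spred1, an inhibitor of the pathway, had a log2 fold change of −0.33.

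Otx2, Zic2, Zic5 and Pou3f1 are also used in the nervous system, and genes of other cell types were read beside them. Of 12 neuroectoderm genes 5 were tested, with 1 higher and 2 lower at an unadjusted p under 0.05 (5.12% and 6.55% of all tested genes), and Neurog2 was listed at 0. The higher, Nes (nestin, 0.673 and 0.720 FPKM against 1.59 and 3.27 FPKM), entered the test through shCbx6 alone, and Sox1, 1 of the 2 lower, through shCtl alone. Sox1, an early neural marker, was at 2.14 and 2.40 FPKM in the controls and 0.767 and 0.287 FPKM in shCbx6, whereas Pax6 was at 1.47 and 0.569 FPKM and at 5.51 and 1.82 FPKM. The summed level of the neuroectoderm list was 34.7 to 42.1 FPKM in the controls and 28.0 to 35.7 FPKM in shCbx6, most of it Tubb3, a neuronal tubulin. Without Tubb3 the sum was 6.94 and 5.65 FPKM in the controls and 10.3 and 6.98 FPKM in shCbx6, higher in both but barely so in the nearest pair. Pax6, with group means of 1.02 and 3.66 FPKM, is part of that sum. The rest of the list, without Tubb3 and Pax6, overlapped between the groups. Of 5 tested trophectoderm markers, 2 were higher at an unadjusted p under 0.05 (5.12% of all tested genes) and none after adjustment. Of the 5, 4 had both shCbx6 values above both controls (18.9% of all tested genes), led by the keratin Krt18 (3.66 and 6.91 FPKM against 13.2 and 122 FPKM). The list summed to 13.6 and 17.9 FPKM in the controls and to 34.8 and 254.8 FPKM in shCbx6. Most of the last sum, that of shCbx6 replicate 2, was Krt18 and a further keratin, Krt8 (4.81 and 7.25 FPKM against 12.1 and 119 FPKM). Without these keratins the sums were much smaller, but those of both shCbx6 libraries still lay above both controls. Hand1, among the 4, entered the test through its shCbx6 level alone, at 0.205 and 1.80 FPKM. Cdx2, Elf5 and Gata3, too low to test, also had both shCbx6 values above both controls, as 23.5% of untested genes did. The summed level ran from 36.3 to 55.1 FPKM over all libraries for fibroblast markers (2 of 8 tested, Thy1 0.28 and Vim −0.33 in log2 fold change, Lum at 0), nearly all of it Vim. The defining collagens Col1a1, Col1a2 and Col3a1 and the proteoglycan gene Dcn were too low to test, at or under 0.549 FPKM in every library. All had both shCbx6 values above both controls, as 23.5% of untested genes did, mostly at values near 0. Col1a1 was at 0.0336 and 0.0398 FPKM against 0.0984 and 0.549 FPKM, and Col3a1 at 0.00563 and 0 FPKM against 0.00589 and 0.0550 FPKM. Primitive endoderm markers summed to 15.5 and 16.1 FPKM in the controls and 6.13 and 10.3 FPKM in shCbx6 (3 of 8 tested, Dab2 0.40 and Lama1 −1.62), with Dab2 tested through its shCbx6 level alone. Without Lama1, a laminin gene, the sums were 6.15 and 6.16 FPKM in the controls and 3.23 and 8.24 FPKM in shCbx6, which overlap. Of the 5 untested, Gata6 and Sox17 lay above both controls in shCbx6 and Sox7 and Pdgfra below. Among untested genes, 23.5% lay above and 13.3% below. The part of these markers in the levels of Otx2, Pou3f1, Fgf5, Zic2 and Zic5 was not tested.

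**Figure D3:**
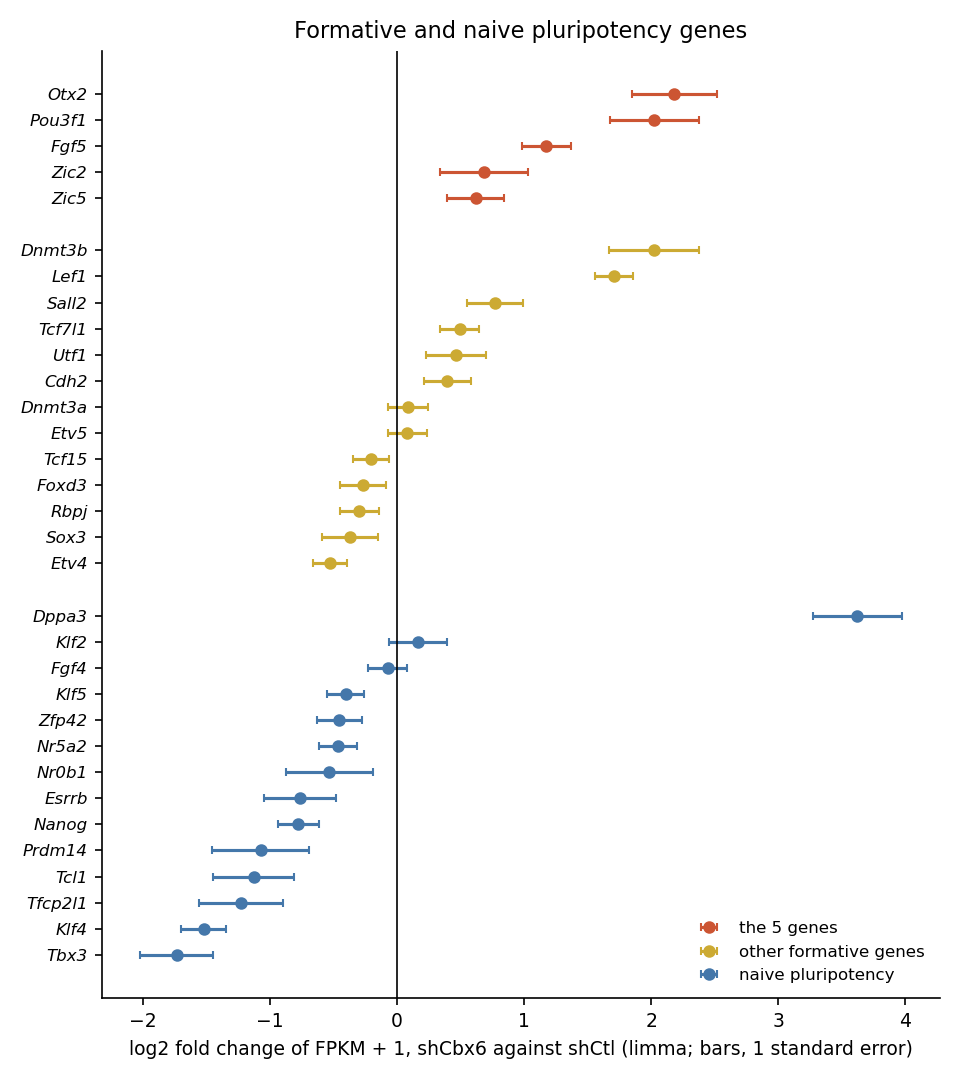
Log2 fold change of shCbx6 over shCtl on log2(FPKM + 1) for each of the 5 genes (red), the 13 other formative genes (yellow) and the 14 naive genes (blue), with bars of 1 standard error from limma. The 5 formative and primed genes lie between 0.62 and 2.18, and the naive list has its median at −0.65 with Dppa3 at 3.62.

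The genes whose pattern over the 4 libraries was nearest to each of the 5 were found by the distance between centred log2(FPKM + 1) values, a description with no test. Pou3f1 was nearest to Dnmt3b (distance 0.0352), then Slc40a1 (0.172) and Vrtn (0.233). Otx2 was nearest to Gadd45g (0.190), then Pou3f1 (0.281) and Tmem54 (0.289), so that Pou3f1 took place 2 of 11591 genes ranked. Fgf5 was nearest to Irgm1 (0.0701), Hs6st2 (0.0724) and Akr1b10 (0.0781). Zic2 was nearest to Adam19 (0.122), Mirg (0.204) and Olfr613 (0.210), and Zic5 to Thbs3 (0.0764), Tead1 (0.0837) and Colec12 (0.122). Zic5 took place 54 from Zic2 at a distance of 0.50. With 0.1 FPKM added in place of 1, Gadd45g went to place 308 and Pou3f1 to place 13 from Otx2, and Dnmt3b to place 25 from Pou3f1, whereas Adam19 kept place 1 from Zic2.

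All 5 genes had Polycomb peaks at their starts, but not in every list. A gene was counted as a target when at least 1 bp of a peak lay between 2500 bases upstream of its start and its transcript end, in mm9, the build of the peak files. Otx2, Pou3f1 and Zic2 were targets in all 4 lists, Fgf5 in 3 (without CBX6 replicate 1) and Zic5 in 3 (without CBX7). Thus 4 of 5 were targets in CBX6 replicate 1, 5 in CBX6 replicate 2, 4 for CBX7 and 5 for RING1B. Over 21921 genes with coordinates, these shares were 56.9%, 16.6%, 17.9% and 16.1%, and 11.5% of genes were targets in all 4 lists. The CBX6 replicates differed in size, with 21865 and 5103 peaks, beside 5081 for CBX7 and 4180 for RING1B.

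Otx2 (chr14:49277354-49287319, minus strand) lay under a broad domain. In CBX6 replicate 2 a peak of 6426 bp, at 49283948 to 49290373, spanned the outermost start with its centre in an untranslated region. CBX7 and RING1B peaks of 6040 and 7520 bp spanned it as well, and all 3 covered 100.0% of the 5.0 kb around the start. Each had the score 3100.0, which recurred in 134, 403 and 507 peaks of the respective lists and is near the highest score there, so that peaks with it cannot be ranked among themselves. A further peak, upstream of the spanning one, was called in the same 3 lists, with scores of 492.3, 326.5 and 447.1. In CBX6 replicate 1, by contrast, there were 2 narrow peaks, of 759 and 996 bp with scores of 63.8 and 53.9, places 17246 and 20336 of 21865 in that list. Neither reached the outermost start. The inner promoter printed above lay within peaks of all 4 lists over its 300 bp, and the outermost within those of CBX6 replicate 2, CBX7 and RING1B.

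Pou3f1 (chr4:124334889-124337899, plus strand) was covered almost from end to end. Its peaks were 4448 bp wide in CBX6 replicate 1, 4537 bp in CBX6 replicate 2, 5831 bp for CBX7 and 4979 bp for RING1B, which all lay over the start and centred in the coding exon, in a gene of 3011 bp. CBX7 and RING1B peaks carried the score 3100.0. The CBX6 scores were 342.8 and 2616, at or above 97.4% and 96.3% of the peaks of their lists. In both CBX6 replicates, then, Pou3f1 held a peak near the top of the list.

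Fgf5 (chr5:98683203-98706049, plus strand) had peaks around its start alone. The widths were 3659 bp in CBX6 replicate 2, 4189 bp for CBX7 and 3799 bp for RING1B, with scores of 1119, 2456 and 2608, at or above 89.7%, 88.7% and 84.5% of their lists. All 3 contained the printed CpG-rich promoter whole. CBX6 replicate 1 had no peak there, and its nearest lay 67262 bases from the start. The CBX6 replicates thus went against each other at Fgf5.

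Zic2 (chr14:122874604-122879074, plus strand) and Zic5 (chr14:122856017-122864899, minus strand) point away from each other, with starts 9705 bp apart. Zic2 had the widest peaks of the 5 genes, of 10040 bp in CBX6 replicate 2, 11626 bp for CBX7 and 15476 bp for RING1B, with scores of 3100.0, 1597 and 2510. In CBX6 replicate 1 its peak of 4342 bp scored 463.4, place 211 of 21865. Zic5 had less. RING1B had a peak of 3544 bp over its start (score 421.3) and CBX6 replicate 1 a peak of 1700 bp (score 115.2). In CBX6 replicate 2 a peak of 971 bp (score 84.2) reached 225 bp into the target window and lay 2276 bases from the start, and the nearest CBX7 peak was 3276 bases away. The Zic5 promoter accordingly lay within RING1B (300 bp) and CBX6 replicate 1 (296 bp) peaks only. Over the 23058 bp from the end of Zic5 to the end of Zic2, peaks covered 37.5% (CBX6 replicate 1), 41.7% (CBX6 replicate 2), 41.3% (CBX7) and 53.1% (RING1B).

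**Figure D4:**
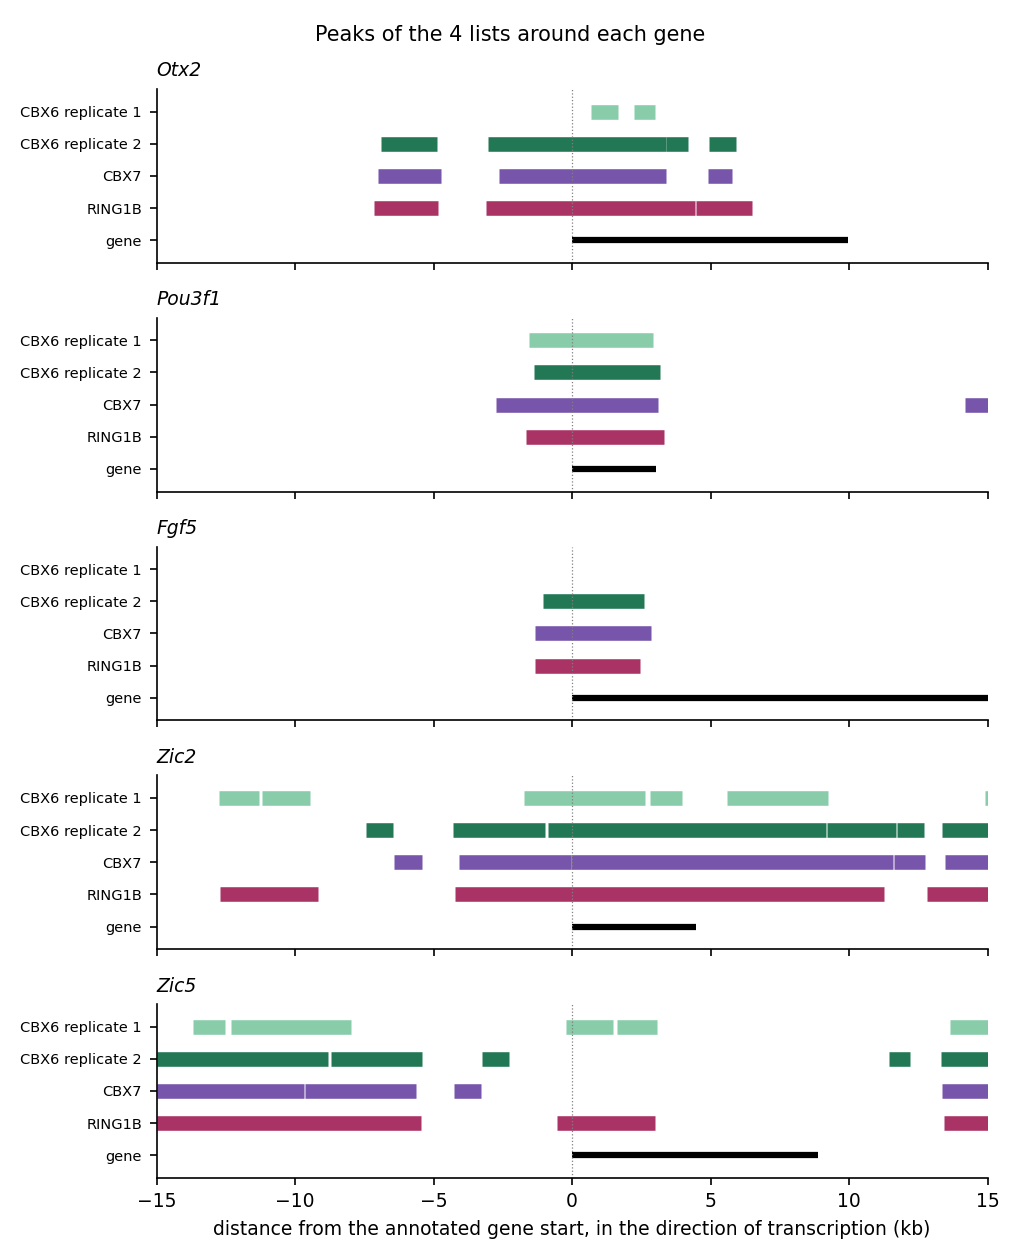
Peaks of the 4 lists around the start of each of the 5 genes, with distance from the start in kb along the direction of transcription and 1 line per list. Peaks span the start in CBX6 replicate 2, CBX7 and RING1B at Otx2, Pou3f1, Fgf5 and Zic2, none of CBX6 replicate 1 lies at Fgf5 and none of CBX7 at the start of Zic5, and the Zic2 and Zic5 panels show some of the same peaks.

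Within 2500 bases on either side of the start, the share covered by peaks was above the median of covered genes for Pou3f1 and Zic2 in all 4 lists. It was 80.8% and 84.4% in CBX6 replicate 1 for these genes, where the median was 32.9%. For Fgf5 it was 71.1%, 76.5% and 76.0% in CBX6 replicate 2, CBX7 and RING1B, whose medians were 34.8%, 46.3% and 48.2%. Zic5 had 4.50% in CBX6 replicate 2 and 60.7% in RING1B. Other settings moved single calls. With peaks of a score of at least 100, Otx2 was lost from CBX6 replicate 1 and Zic5 from CBX6 replicate 2. With 500 bp of overlap Zic5 was lost from CBX6 replicate 2, and with 10.0 kb upstream Zic5 was gained for CBX7. Scores are not on one scale between the lists, and each list is of a single sample.

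Relatives with almost no RNA also carried peaks of high score. Zic1, Zic4, Otx1 and Pou3f2 each had a peak with the score 3100.0 in CBX6 replicate 2, CBX7 and RING1B, and Pou3f3 had one in the latter pair. Crx had no peak in any list, and Fgf4 and Fgf6 had peaks in CBX6 replicate 1 alone. A peak in CBX6 replicate 2, CBX7 and RING1B was thus found both at genes near 0 FPKM in every library and at Otx2, Pou3f1, Fgf5 and Zic2. Of the 13 other formative genes, 12 were targets in CBX6 replicate 1, 6 in CBX6 replicate 2, 7 for CBX7 and 6 for RING1B, beside shares of 56.9%, 16.6%, 17.9% and 16.1% over all genes. Dnmt3b, nearest to Pou3f1 in expression, had no RING1B peak. Its peaks scored 65.7 in CBX6 replicate 2 and 87.3 for CBX7, below the list medians of 155.6 and 300.4. In CBX6 replicate 1 its peak scored 175.2, above the list median of 95.3. Among the 14 naive genes, 13, 5, 3 and 3 were targets in the same lists, and of the 6 core genes 5 were in CBX6 replicate 1 and none in the others. With so few genes, these counts are set beside the same shares as a description.

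The levels of Otx2, Pou3f1, Fgf5 and Zic2 were then set beside those of other genes that share their peaks. Of 865 tested genes with a peak in CBX6 replicate 2, CBX7 and RING1B, 214 (24.7%) were at least 1.5-fold higher in shCbx6 with no overlap between groups, and 122 (14.1%) were lower by the same rule. Of 10488 other tested genes with coordinates, 508 (4.84%) were higher and 542 (5.17%) lower. Of the 214 higher genes 110 were tested through their shCbx6 level alone, as were 149 of the 508, and 52 of the 122 and 108 of the 542 lower genes through shCtl alone. A gene under the filter in 1 group had to differ to be tested, so the shares of the 865 and of the others are not on equal terms. Otx2, Pou3f1 and Fgf5 belong to the 214 genes (Pou3f1 and Fgf5 also to the 110), Zic2 has the peaks but overlapping groups, and Zic5 lacks the CBX7 peak. The median log2 fold change was 0.08 over the 865 genes and −0.02 over the others.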

How the data were processed

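RNA-seq (4 libraries) and ChIP-seq peak lists (4) of E14Tg2A ESCs were used as deposited; 3 control ChIP samples had no list here. The authors mapped RNA reads with TopHat to mm9 and deposited Cufflinks FPKM values, 1 column per library. ChIP reads were mapped with Bowtie, unique reads kept, and peaks called by the authors with MACS (shift size 75 bp); the deposited score of each peak is that of the caller. Versions, strand handling and the control of each call are not given in the sources used here. CBX6 and CBX7 ChIP used a high sensitivity kit and RING1B another protocol, per the labels.

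Genes averaging at least 1 FPKM in either group (11592) were tested with limma 3.58.1 (R 4.3.3, lmFit and eBayes with trend, two-sided, Benjamini-Hochberg adjustment) on log2(FPKM + 1), shCbx6 against shCtl. A count test does not apply to FPKM. Of 23290 entries, 2 repeated symbols were dropped, and 23 symbols had been turned into dates. Ratios used means of FPKM. Other steps used Python 3.11.15. The limma fit was also run on simulated data with the spread of the controls. There it recovered 5.97% of 2-fold, 73.1% of 4-fold and 95.5% of 8-fold changes, with 3 false calls. Coordinates came from the GENCODE mm9 annotation, matched to 21921 symbols (94.1%); the authors used RefSeq. Promoters were placed in mm9 by exact match.

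Same-numbered libraries deviated together weakly (correlation 0.266 over 2 pairs), and no source says that numbers mark a shared culture, so the block was an alternative. Other alternatives were the pseudocount, the filter, scaling, each library left out, and windows, scores and overlaps of peaks. Named were the 5 genes, their families, Cbx6, the tested gene of each list with the largest difference in either direction and the 3 genes nearest to each member. The 5 genes and all 14 lists were chosen with earlier results of these data known. Other genes named from the lists (such as T, Nes, Fgfr2, Hand1 and Col1a1) were chosen after their values were seen, and not every gene of the lists is reported here.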

Additional observations from a re-analysis of the deposited data

How the results depend on the processing

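Otx2, Pou3f1, Fgf5, Zic2 and Zic5 were higher in shCbx6 in 11 of 11 fits each. Limma called 11 genes over the whole table, 17 with a pseudocount of 0.1, 2 with no filter on low FPKM and 19 to 398 with a library left out, 398 being without shCbx6 replicate 1. With the replicate number as a block, limma called 388 genes, among them Otx2 (2.18, adjusted p = 0.0149), Pou3f1 (2.02, 0.0359), Fgf5 (1.17, 0.0449) and Zic2 (0.68, 0.0488), but not Zic5 (adjusted p = 0.13). The 2 pairs are too few to show whether numbers pair the libraries. With a library left out, log2 fold changes ran from 1.71 to 2.65 (Otx2), 1.51 to 2.54 (Pou3f1), 1.06 to 1.29 (Fgf5), 0.29 to 1.08 (Zic2) and 0.33 to 0.91 (Zic5), and Otx2, Pou3f1 and Fgf5 passed without shCbx6 replicate 1. The cause was not tested. Genes at least 1.5-fold higher or lower (885 and 761) numbered 3739 and 2357 with no filter, 632 to 1414 higher and 850 to 1179 lower with a library left out, and 439 and 268 at a threshold of 2, chosen after seeing the data. Genes with groups that do not overlap (5013) numbered 7589 with no filter and 7932 to 9015 with a library left out, where 1 sample makes overlap rarer. Member counts in the peak lists moved by at most 1 gene. With 2 libraries a group and no fragment totals, precision is that of the spread between libraries alone.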
